A study of Mus musculus with 2 samples.

Results

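The H3K27ac peaks around 5 genes of the developing heart, Jag1, Notch1, Hey1, Hey2 and Bmp10, were compared between the atrioventricular canal (AVC) and the heart chambers of the mouse. A peak belonged to a gene when its midpoint lay in a fixed window of the mm9 genome around that gene. The windows were chr2:136800001-137050000 for Jag1, chr2:26250001-26420000 for Notch1, chr3:8560001-8770000 for Hey1, chr10:30450001-30660000 for Hey2 and chr6:87300001-87450000 for Bmp10. They held 98 of the 154664 peaks of both lists, 54 of 87572 in the AVC and 44 of 67092 in the chambers. H3K27ac, acetylated lysine 27 of histone H3, marks active promoters and enhancers. It was measured by ChIP-seq in FVB/N embryos at stage E10.5, in EGFP-positive cells for the AVC and in Katushka-positive cells for the chambers; both libraries carry the genotype label Katushka+ EGFP+. Which promoters drive the reporters, which cell types they label and how many hearts were pooled is not stated in the labels or headers. Each tissue had 1 library, so no difference below has a replicate check, and the tissue labels were not checked against marker genes.

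Jag1 is a membrane ligand and Notch1 a receptor of the Notch pathway. Binding releases the intracellular part of the receptor, which joins the DNA-binding protein RBPJ and switches on target genes, among them the repressors Hey1 and Hey2. In the embryonic heart Jag1 and Notch1 are known from the endocardium, Hey1 from the atrial and Hey2 from the ventricular myocardium, where the Hey proteins keep the AVC programme of Bmp2 and Tbx2 out of the chambers. Bmp10 is a secreted growth factor of the trabecular myocardium, needed there for growth of the ventricular wall. Hey genes are also Notch targets in endocardium, that of the canal included. The comparison asks how acetylation around them is placed in each tissue.

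RefSeq promoter sequences (GRCm38.p6, 250 bases before to 50 after the gene start) were at hand for 4 of the 5 genes, Jag1, Notch1, Hey2 and Bmp10. The promoters of Hey2, a Notch target, and of Bmp10 are shown because they differ most in base composition and are those of the 4 that hold the core letters read by RBPJ, TGGGAA or its complement TTCCCA, here in capitals. Hey2 is on the minus strand at chr10:30842734-30843033 and Bmp10 on the plus strand at chr6:87428744-87429043; these GRCm38 positions cannot be set against the mm9 peaks.
Hey2: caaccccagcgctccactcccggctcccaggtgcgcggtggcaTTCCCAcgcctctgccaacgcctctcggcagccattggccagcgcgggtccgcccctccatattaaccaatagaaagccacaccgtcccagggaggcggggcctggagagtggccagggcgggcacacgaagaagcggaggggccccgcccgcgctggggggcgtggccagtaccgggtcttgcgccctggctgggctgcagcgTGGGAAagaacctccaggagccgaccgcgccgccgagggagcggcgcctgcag
Bmp10: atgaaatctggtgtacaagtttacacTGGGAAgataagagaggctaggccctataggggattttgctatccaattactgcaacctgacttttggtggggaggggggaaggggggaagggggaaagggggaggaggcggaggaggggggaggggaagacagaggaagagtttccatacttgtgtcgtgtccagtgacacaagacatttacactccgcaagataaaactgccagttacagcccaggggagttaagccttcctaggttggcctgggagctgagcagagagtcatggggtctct

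The Hey2 promoter held TGGGAA 2 times over both strands, with first bases 207 and 3 bases before the gene start, and Bmp10 held it once, 224 bases before. Of all 32851 RefSeq promoters of this length, 25.6% hold these letters. The GATA factor letters AGATAA occurred 2 times in the Bmp10 promoter, 219 and 33 bases before the start, the first sharing 1 base with TGGGAA. None of the other promoters of the 4 held them, and 11.2% of all promoters have at least 1 match. Shares of promoters with 2 matches were not counted for either motif. The E box CACGTG (7.15% of all promoters) and the T-box letters AGGTGTGA (1.28%) matched none of the 4 promoters on either strand. The Hey2 promoter was 72% G and C with 29 CpG pairs, and the Bmp10 promoter 53% with 3. Notch1 (68.3%, 23 CpG) and Jag1 (55.7%, 22 CpG) lay between them in base composition, against medians of 52.7% and 7 CpG over all promoters. A match of letters is not a binding site.

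Peaks were scored by the authors' caller with a Log(ER) score above 2, set separately on each chromosome, and carry a second deposited number, here called the signal value. It is whole, has no name in the headers and is unscaled between the lists; ranks below are by this value among the peaks of the same list and chromosome. Sequencing depth is unknown, and a higher value from more acetylated cells or from more acetylation per cell cannot be told apart. In the neighbourhood of each gene the RefSeq order of protein-coding genes is Slx4ip, Jag1, Btbd3 on chromosome 2; Sec16a, Notch1, Egfl7 on the same chromosome; Stmn2, Hey1, Mrps28 on chromosome 3; Ncoa7, Hey2, Hddc2 on chromosome 10; and Gkn3, Bmp10, Arhgap25 on chromosome 6. No mm9 annotation was used here, so peaks were not assigned to promoters, exons or introns, and a peak of a window may belong to a neighbour of the named gene.

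The windows around the Notch ligand and receptor held the most peaks. The Jag1 window had 18 AVC and 9 chamber peaks, the Notch1 window 13 and 18, the Hey2 window 12 and 8, the Bmp10 window 7 and 5, and the Hey1 window 4 and 4. The windows differ in width, so each was set beside tiles of its own width along its chromosome, which also cover stretches without genes. In the Notch1 window the 18 chamber peaks were reached by 4.77% of 1069 tiles of 170 kb and the 13 AVC peaks by 9.64%. The 18 AVC peaks of the Jag1 window were reached by 9.92% of 726 tiles of 250 kb, its 9 chamber peaks by 29.3%. The Hey2 counts were reached by 18.4% (AVC) and 29.0% (chambers) of 618 tiles and the Bmp10 counts by 28.8% and 26.9% of 996. Around Hey1, 61.7% of 759 tiles had as many AVC peaks and 42.7% as many chamber peaks, so its window lay near the middle of the tiles in both lists.

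**Figure D1:**
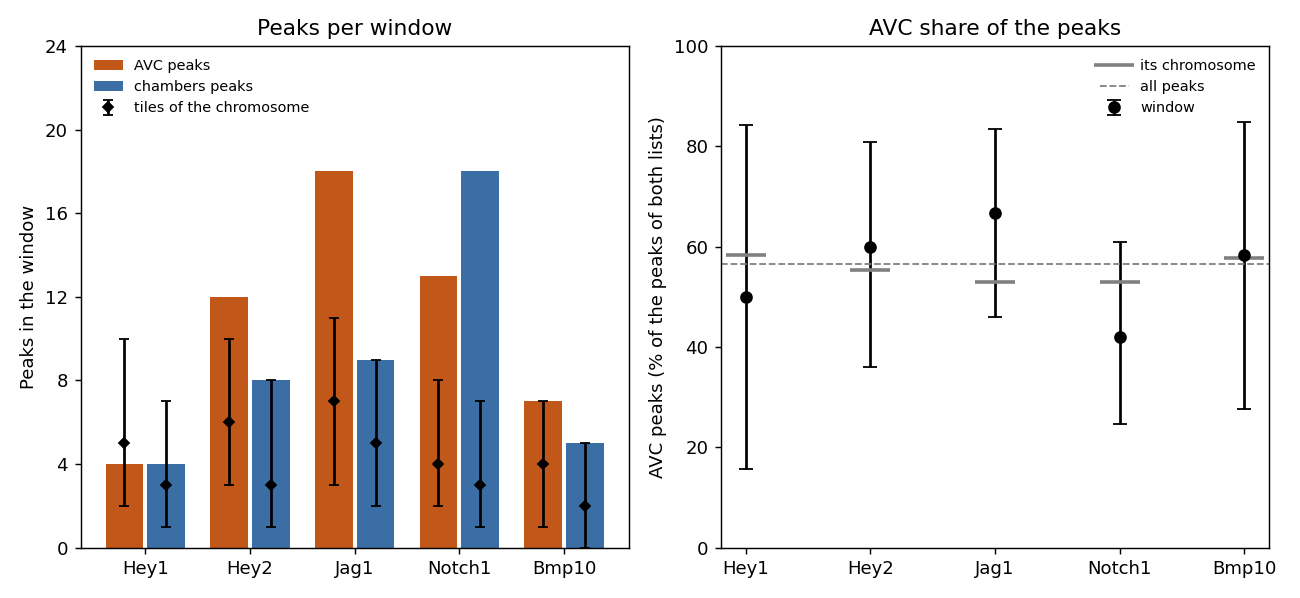
Left, peaks in each window (bars, AVC left of chambers) with the median and quartiles of peaks over tiles of the same width on the same chromosome (diamonds with whiskers); right, the AVC share of the peaks of each window with its exact 95% interval (counting error only), beside its chromosome (grey dash) and all peaks (dashed line, 56.6%). The counts of Hey2 and Jag1 (AVC) and Notch1 (both lists) lie above the upper quartile of the tiles, and every interval of the AVC share spans its chromosome's share.

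No window differed from its chromosome in the balance of the lists beyond counting error. AVC peaks made up 66.7% of the peaks of the Jag1 window (exact Clopper-Pearson 95% interval 46.0 to 83.5) and 41.9% (24.5 to 60.9) of those of the Notch1 window, against 53.0% on chromosome 2, where both lie. The AVC share was 50% (15.7 to 84.3) around Hey1, with 4 peaks in each list, against 58.3% on chromosome 3. It was 60.0% (36.1 to 80.9) around Hey2, against 55.3% on chromosome 10, and 58.3% (27.7 to 84.8) around Bmp10, against 57.8% on chromosome 6. With the lists cut to equal peak numbers per chromosome, the AVC share of all peaks is 50%. At this cut it was 37.5% around Bmp10 (3 AVC and 5 chamber peaks), 40% around Notch1 (12 and 18) and 42.9% around Hey1 (3 and 4). Above 50% were Hey2 with 60% (12 and 8) and Jag1 with 62.5% (15 and 9). The intervals are wide because the windows hold 8 to 31 peaks, and peaks of 1 window are not independent. Over the 5 windows the AVC share was 55.1% (44.7 to 65.2), against 56.6% over all peaks.

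Few of these peaks lay in both lists. Of the 54 AVC peaks 8 overlapped a chamber peak by at least 1 bp (14.8%, 6.62 to 27.1), against 23.2% of the whole AVC list. Of the 44 chamber peaks 9 overlapped an AVC peak (20.5%, 9.80 to 35.3), against 31.6% of the whole chamber list. The AVC interval includes the share of the whole list, and so does the chamber interval. By gene, 2 AVC peaks overlapped at each of Jag1 (of 18), Notch1 (of 13), Hey2 (of 12) and Bmp10 (of 7). The overlapping chamber peaks numbered 2 of 9 at Jag1, 3 of 18 at Notch1, 2 of 8 at Hey2 and 2 of 5 at Bmp10. There was no overlap at Hey1. Peaks with a score of 5 or more numbered 5 of 54 in the AVC (9.26%, 3.08 to 20.3), against 9.95% of the AVC list, and 5 of 44 in the chambers (11.4%, 3.79 to 24.6), against 18.1% of the chamber list. These 10 strong peaks lay at Jag1 (2 AVC, 3 chambers), Notch1 (2 AVC), Hey2 (1 in the chambers) and Bmp10 (1 in each). The median score of the windows was 2.63 (AVC) and 2.61 (chambers), against 2.62 and 2.81 over the lists. Scores, like values, were not scaled between the lists, so a score of 5 need not be the same cut in both. At Jag1 an AVC peak with a value of 50 scored 4.94, and a chamber peak with a value of 47 scored 5.56.

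**Figure D2:**
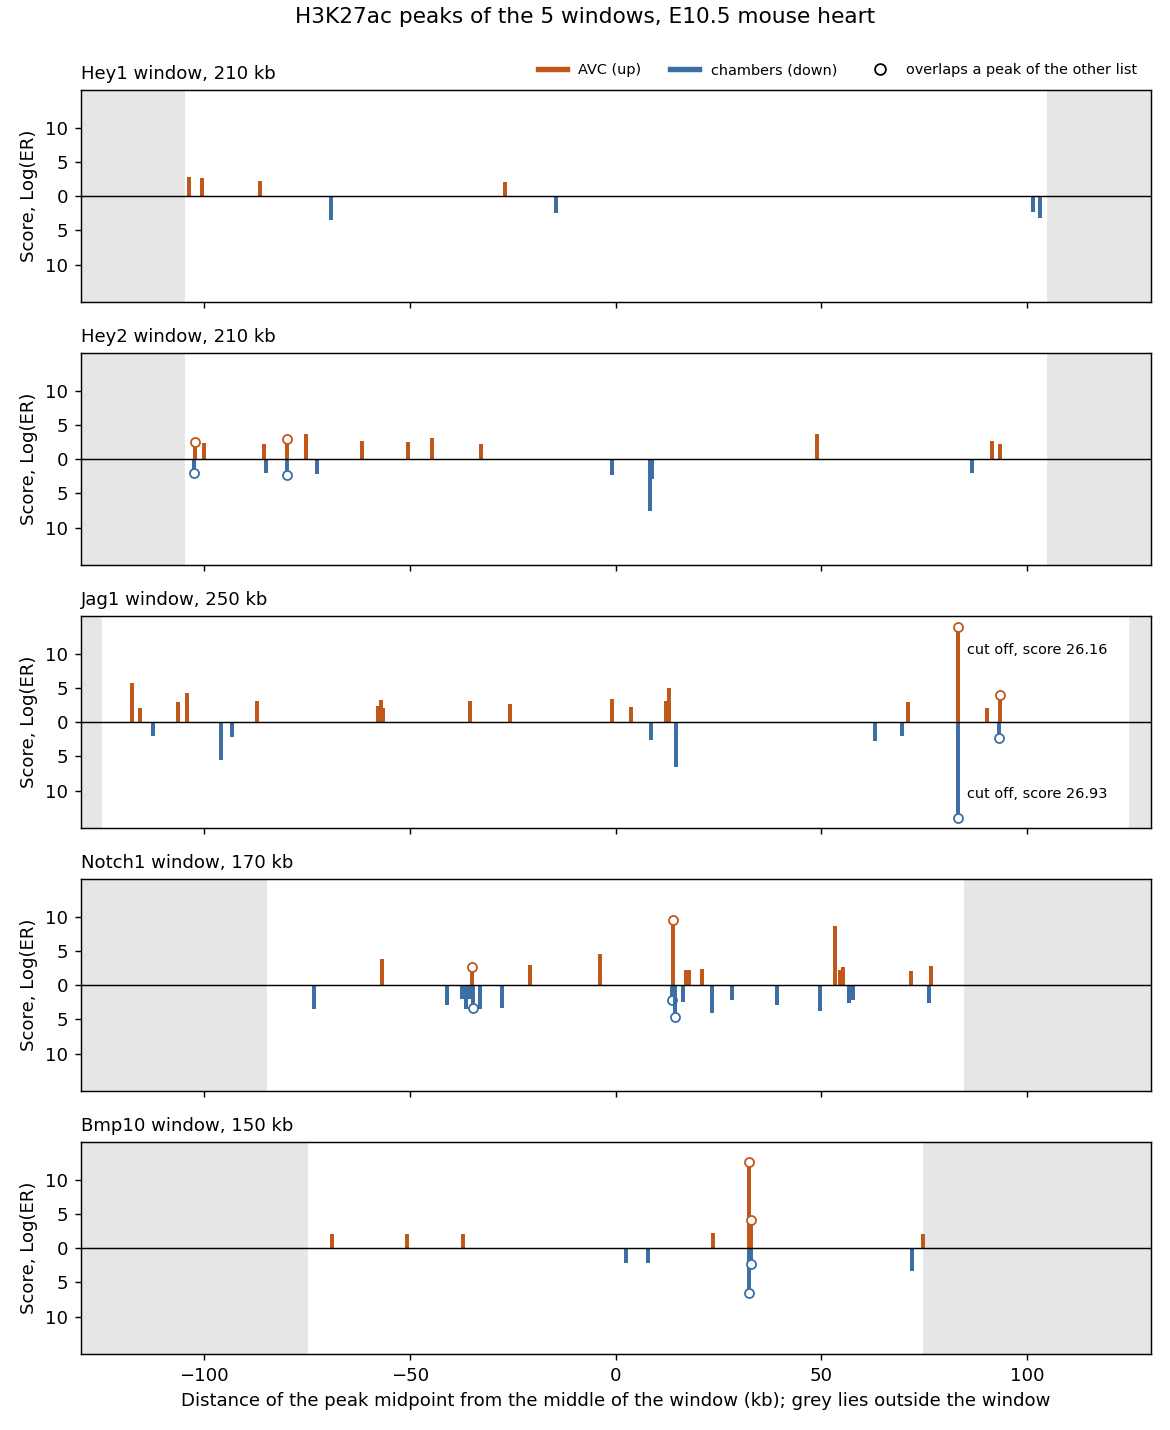
Peaks of the 5 windows by the distance of their midpoint from the middle of the window (kb), with the AVC score upward and the chamber score downward. The scores were set in each list separately and are not scaled to each other. Open circles mark peaks that overlap a peak of the other list, and 1 pair at Jag1 is cut off, with its scores of 26.16 and 26.93 printed. The chamber peak with a score of 7.63 at Hey2 stands in a stretch with no AVC peak. The Hey1 window has no peak over 115.7 kb that include its middle and lie mostly above it. At Bmp10 the highest peaks of both lists coincide.

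Around Jag1, the ligand, each list had a long stretch without peaks, at different places. From 136837575 to 136928955, over 91.4 kb, 8 AVC peaks followed each other with no chamber peak between them, with scores between 2.07 and 3.34. The longest stretch without a chamber peak measured 101.4 kb and included the middle of the window, and the longest without an AVC peak measured 57.4 kb, from 136938338 to 136995690. The strongest AVC peak without overlap was at chr2:136807291-136807899, with a signal value of 56 and a score of 5.79, rank 436 of 5929 AVC peaks on the chromosome. The nearest chamber peak was 4558 bp away.

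The highest scores of the chambers alone at Jag1 were 6.56 (signal value 53) at chr2:136939274-136940133 and 5.56 (value 47) at chr2:136828830-136829366. They ranked 572 and 756 of 5268 chamber peaks on chromosome 2. The first stood 937 bp beyond the end of an AVC peak at chr2:136937509-136938337, the third of the AVC scores in the window at 4.94 (value 50). Both lists thus had a broad peak there, 829 bp wide in the AVC and 860 bp in the chambers, side by side and without overlap. After this chamber peak no peak of either list followed for 47.8 kb.

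The highest scores of the window belonged to a narrow pair called in both tissues. The AVC peak at chr2:137008261-137008390 was 130 bp wide, with a value of 286 and a score of 26.16, and the chamber peak at chr2:137008256-137008403 was 148 bp wide, with 194 and 26.93. Their ranks were 69 and 56 on the chromosome. All other peaks of the window had values of 56 or less and were wider, with median widths over the window of 533 bp (AVC) and 384 bp (chambers). The pair counts among the strong peaks, overlaps and signal ratios of Jag1, and why it is so narrow and high was not tested. A further overlap, at chr2:137018235-137018754 in the AVC (value 43, score 3.99) and chr2:137017952-137018398 in the chambers (26, 2.34), joined weaker peaks.

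Notch1, the receptor, had the densest window. In the full lists it was the only one of the 5 with more chamber than AVC peaks. With peaks of at least 300 bp alone it had 12 AVC and 10 chamber peaks. That was an AVC share of 54.5%, still below the share of all peaks, which rose from 56.6% to 66.9% at this cut. The 2 strong peaks of the Notch1 window were AVC peaks. The first, at chr2:26348462-26349428, was 967 bp wide, with a value of 80 and a score of 9.50, rank 230 of 5929. It overlapped 2 chamber peaks, at chr2:26348457-26348813 (value 25, score 2.2) and chr2:26349354-26349586 (41, 4.58), the highest chamber score of the window. The broad AVC peak thus ran across the place of a weaker chamber pair that lay at its ends. The second, at chr2:26387956-26388661, had a value of 75 and a score of 8.71, rank 254, and its nearest chamber peak was 2853 bp away.

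The third AVC score at Notch1 was 4.52 (value 47) at chr2:26331008-26331641, inside 40.7 kb without a chamber peak. The chamber peaks of highest score without overlap were at chr2:26358177-26358606 (value 38, score 4.10) and chr2:26384467-26384864 (36, 3.79). No chamber peak of this window reached a score of 5. The longest runs of chamber peaks without an AVC peak between them had 4 members each, from 26293804 to 26299782 (5.98 kb, scores 2.07 to 3.49) and from 26358177 to 26384864 (26.7 kb, scores 2.2 to 4.10). The first was followed by an overlapping pair of nearly equal value, 32 in the AVC at chr2:26300056-26300407 and 33 in the chambers at chr2:26300062-26300419. AVC peaks were wider than chamber peaks here, with medians of 607 bp and 303.5 bp, as in the whole lists (472 and 325 bp).

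Hey1, the Notch target known from the atria, had the fewest peaks and, in each list, the lowest top score of the 5 windows; its median scores, 2.48 (AVC) and 2.76 (chambers), were not the lowest. Its 4 AVC peaks had values of 32, 31, 28 and 26 and scores of 2.77, 2.65, 2.30 and 2.07, and its 4 chamber peaks values of 33, 31, 26 and 25 and scores of 3.43, 3.12, 2.39 and 2.25. None overlapped, and the ranges of the values did overlap. The strongest AVC peak was at chr3:8560960-8561740, rank 2210 of 5472, and the strongest chamber peak at chr3:8595638-8595912, rank 1344 of 3911. All 4 AVC peaks lay below the middle of the window, while the chambers had 2 on each side. From 8650724 to 8766397, over 115.7 kb that include the middle, neither list had a peak. A missing peak says that the caller's threshold was not reached, not that acetylation was absent.

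Hey2, the Notch target known from the ventricles, had a chamber peak near the middle of its window where the AVC list was empty. This peak, at chr10:30563145-30563715, was 571 bp wide, with a value of 59 and a score of 7.63, rank 332 of 3516 chamber peaks on chromosome 10. It was flanked by 2 further chamber peaks, at chr10:30563803-30564097 (value 30, score 2.88) and chr10:30554092-30554334 (26, 2.32). The 3 peaks spanned 10.01 kb and had no AVC peak between or beside them. The nearest AVC peak to the strong one was 39994 bp away, and the stretch without AVC peaks measured 81.2 kb, from 30522520 to 30603708. The chamber list had a gap of its own of 77.2 kb, from 30564098 to 30641307.

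The AVC peaks at Hey2 lay to the sides. Of the 12, 9 were below the middle of the window and 3 above, with scores between 2.17 and 3.70. The highest score was reached at chr10:30479487-30480155 and at chr10:30603709-30604366, both with a value of 41 and rank 825 of 4356, and neither overlapped a chamber peak; the second lay in the chamber gap. The next was at chr10:30510092-30510489 (value 36, score 3.08). No AVC peak of the window reached a score of 5. The 2 overlaps, at chr10:30452506-30452950 and chr10:30474961-30475422 in AVC coordinates, joined weak peaks with AVC values of 31 and 35 and chamber values of 24 and 26.

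Bmp10, the trabecular growth factor, had its highest peaks of both lists at 1 place, where the AVC midpoint was 32.4 kb above the middle of the window. The AVC peak at chr6:87407024-87407784 was 761 bp wide, with a value of 99 and a score of 12.56, rank 122 of 5102 AVC peaks on chromosome 6. The chamber peak inside it, at chr6:87407219-87407770, was 552 bp wide, with a value of 52 and a score of 6.55, rank 443 of 3725. Each list had a second peak directly beside it, in the AVC at chr6:87407817-87408205 (value 43, score 4.09) and in the chambers at chr6:87407784-87408116 (26, 2.36). Each list thus had a pair of adjoining peaks at this place, with higher unscaled values in the AVC.

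Apart from this pair the Bmp10 window was weak in both tissues. The remaining AVC peaks had scores between 2.02 and 2.24, the highest at chr6:87398442-87398807 (value 28). The remaining chamber peaks had scores between 2.1 and 3.38, the highest at chr6:87446964-87447245 (value 33). The 2 peaks nearest the middle were chamber peaks, at chr6:87377522-87377709 (value 25, score 2.23) and chr6:87382761-87383094 (24, 2.1), and no AVC peak was called between 87338272 and 87398441, over 60.2 kb. Below the middle of the window there were 3 AVC peaks and no chamber peak.

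At the 8 AVC peaks with overlap, the AVC signal value was compared with the highest overlapping chamber value, as a ratio of unscaled values. The ratio was 1.90 and 1.65 for the Bmp10 pair, against a median of 1.04 over 1108 overlapping AVC peaks of chromosome 6 (quartiles 0.783 and 1.45); 6.95% of these had a ratio as high as the first. It was 1.95 for the broad AVC peak of Notch1 and 0.970 for the other, against a median of 1.08 over 1487 such peaks on chromosome 2 (0.783 and 1.47), where 5.78% reached the first. At Jag1 it was 1.47 for the narrow pair and 1.65 for the other, and at Hey2 1.29 and 1.35, against a median of 1.10 over 1034 on chromosome 10. Of the 8 ratios 7 exceeded their chromosome's median and 5 its upper quartile. Both Hey2 ratios and both ratios of 1.65 were taken over chamber values of 24 or 26. The lowest values of any peak in the 5 windows were 24 in the chambers and 26 in the AVC. The part of such low values in the ratios was not tested. The median over the 8 was 1.56, against 1.08 over all 20324 overlapping AVC peaks. The 2 highest ratios, at Notch1 and Bmp10, belonged to the AVC peaks with 2 chamber partners each. Against the sum of both partner values they were 1.21 and 1.27, below the upper quartiles above, which were taken with highest values. At Bmp10 the weaker partner (value 26) shared only 1 bp with this AVC peak. It was also the chamber value under the 1.65 of the adjoining AVC peak, so the 1.27 counts it again. At the highest ratio the AVC peak was 967 bp wide and its chamber partner 233 bp. Widths were closer at the 1.65 of Jag1 (520 and 447 bp) and of Bmp10 (389 and 333 bp), and were 462 and 262 bp at the 1.35 of Hey2. The part of width in the ratio was not tested.

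**Figure D3:**
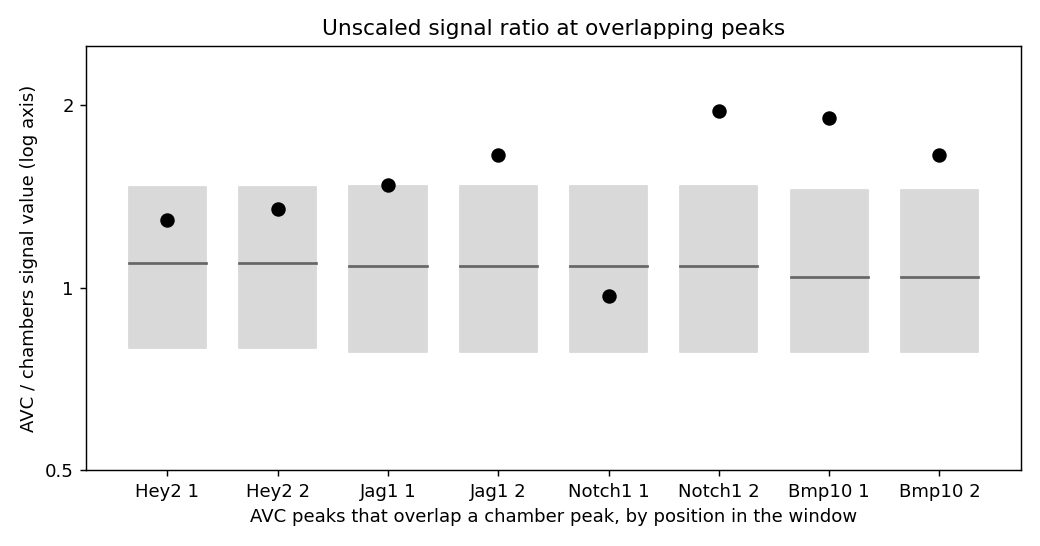
Ratio of the AVC signal value to the highest overlapping chamber value at the 8 AVC peaks with overlap (points, log axis), numbered by position in their window, beside the median and quartiles over all overlapping AVC peaks of the same chromosome (line and grey box). The second Jag1 peak (1.65), the second Notch1 peak (1.95) and both Bmp10 peaks (1.90 and 1.65) lie above the box, the first Jag1 peak (1.47) lies at its upper edge, and the first Notch1 peak (0.970) lies below the median.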

How the data were processed

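H3K27ac ChIP-seq libraries of AVC and chamber cells, 1 each, were analysed from the authors' peak lists. Cells were sorted and fixed before immunoprecipitation and SOLiD sequencing, per the labels' protocols. Bowtie, SAMtools and the mm9 build come from the submitters' processing notes, with no role or version. Per the file headers, OccuPeak 1.3 called peaks in each library, by chromosome, at Log(ER) above 2, for reads of 50 bp and fragments modelled at 60.5 bp (AVC) and 68 bp (chambers). The score deposited by the authors is this Log(ER), log base not stated. The signal deposited by the authors is an unnamed, unscaled whole number per peak. Whether a control library was used is not stated there.

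Peaks were placed by midpoint, with mm9 positions counted from 1. Overlap meant at least 1 bp, and its counts were checked on simulated peaks and with bedtools 2.31.1. The intervals of shares are exact (Clopper-Pearson, 95%) and cover counting error only. No test between tissues was made. Peaks named are the 3 of highest score per list and window, their overlapping partners and the strongest without overlap; flanking or tied peaks, gaps and runs named beside these were chosen after their values were seen. The genes and windows were chosen with earlier results of these data known. Notch pathway genes, tissue markers and motifs in peaks were not analysed here, for want of an mm9 reference; the promoter motif search was added afterwards. Software was scipy 1.17.1, pandas 2.3.3 and numpy 2.4.6 under Python 3.11.15, with figures from matplotlib 3.10.9.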

Additional observations from a re-analysis of the deposited data

How the results depend on the processing

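Of 39 alternative values, 38 stayed within the 95% interval of the reported share, or within 1 SD over peaks for the signal ratio; these intervals are wide, so this says little about stability. With scores of at least 3 the Hey1 window kept no AVC peak and 2 chamber peaks, an AVC share of 0%. The highest AVC score there was 2.77, while chamber scores of 3.43 and 3.12 passed the cut. Their values were close, 32 for that AVC peak and 33 and 31 for the chamber peaks. With equal peak numbers per chromosome the AVC share at Bmp10 was 37.5% (3 AVC and 5 chamber peaks), against 58.3% with the full lists; the share of all peaks is then 50%, against 56.6%. The AVC share at Jag1 lay between 62.5% and 76.9% under the 6 alternatives and at Notch1 between 33.3% and 54.5%. The highest at Notch1 came with peaks of at least 300 bp, where AVC peaks outnumbered chamber peaks (12 and 10), but the share of all peaks is then 66.9%. The 76.9% at Jag1 and the 33.3% at Notch1 came with scores of at least 3, where the share of all peaks is 50.2%. Counting a peak of the other list within 1 kb as shared gave 24.1% of AVC peaks (32.9% over the whole list) and 31.8% of chamber peaks (47.5%). With the sum of overlapping chamber values, the median log2 ratio was 0.40 in place of 0.64. Over the whole list it was 0.054 in place of 0.107. No paired analysis was possible because there was 1 library per tissue. With depth unknown, a peak missing from a list cannot be read as missing acetylation.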
